A study of Drosophila melanogaster with 35 samples.

Results

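The unfolded protein response and the secretory machinery of the endoplasmic reticulum (ER) were followed in the fat body of adult female Drosophila melanogaster through a list of 34 genes. The members were taken by FlyBase symbol, for their known function and not for a measured value, although earlier results of these data were known. They fall into stress sensors and their transcription factors, ER chaperones and folding enzymes, the translocon with the enzymes that process the nascent chain, and ER-associated degradation (ERAD). Of the 34 genes, 32 were among the 14649 genes of the fat body count table, and all 32 passed the filter on low counts together with 9819 genes in all. Pdi and TER94 were not analysed here.

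The ER folds and glycosylates secreted and membrane proteins. When unfolded protein accumulates, Ire1 splices the mRNA of the transcription factor Xbp1, PEK (the fly PERK kinase) slows translation and favours that of crc (the fly ATF4), and Atf6 is released from the membrane by cleavage. The insect fat body, the counterpart of liver and adipose tissue, secretes yolk and haemolymph proteins in bulk and therefore relies on this machinery. Counts per gene do not separate spliced from unspliced Xbp1 mRNA, so the values here are total Xbp1 mRNA and not the activity of Ire1.

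The study fed the steroid RU486 to flies that carried the GeneSwitch driver S106, which RU486 turns on, with or without a UASfoxo transgene for the transcription factor foxo. All 17 libraries came from females aged 30 days. The switch flies ate 200 µM RU486 for 21 days and then 7 days of control food. Flies of the control groups had no RU486 by their induction label, although the treatment label of every sample names the drug. Without the transgene there were 5 control and 4 switch libraries (S106 control, S106 switch), and with it 4 and 4 (S106>UASfoxo control, S106>UASfoxo switch), so every group carries S106. The sources used here do not give the tissues in which S106 is active or the number of animals per library. The labels do not say that replicates were separate cultures, so the p-values measure the spread between libraries, which may be partly technical.

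Library totals ran from 6708078 to 27527703 counts, with a median of 9481397. Levels are given as CPM, counts scaled to a common library total with edgeR's TMM factors. The mRNA of foxo averaged 105 ± 48.5 CPM in the S106>UASfoxo controls (SD, n = 4) and 163 ± 59.4 CPM after RU486 (SD, n = 4), with overlapping ranges. That log2 difference, 7 days after the drug was withdrawn, was 0.63 ± 0.35 (SE) and did not pass edgeR's test (adjusted p = 0.457). Fat body markers, which include yolk protein genes, had a summed level between 26098.8 and 154889 CPM. Of the 10 markers, 9 passed the filter on low counts. In some libraries, such as S106 control replicate 2, 1 of the 10 had no counts. The summed level of the 20 ovary and egg markers in the table ranged from 78.1 to 5540.7 CPM, so these markers differed widely between libraries, and none of them was at 0 in every library of a group. In bulk tissue, fewer cells of a type and less RNA per cell cannot be told apart.

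Per kilobase of exon, the module spanned a wide range of levels. The most abundant mRNA was crc at 335 CPM per kilobase, averaged over the 17 libraries. It was followed by Calr (calreticulin, a lectin chaperone) at 227, ERp60 (a protein disulfide isomerase) at 176, Hsc70-3 (the fly BiP, the main ER Hsp70) at 175 and Xbp1 at 137 CPM per kilobase. The 3 subunits of the translocation channel came next, Sec61beta at 135, Sec61alpha at 124 and Sec61gamma at 103 CPM per kilobase. At the low end stood Edem1, which hands misfolded glycoproteins to degradation, at 6.18 CPM per kilobase and PEK at 9.96. By sub-group, the median level was 45.2 CPM per kilobase for chaperones, 40.3 for the translocon, 25.8 for sensors and 25.7 for ERAD. The value of crc is uncertain, since 73.5% of its exonic length is shared with CG46314 on the same strand, and the sources used here do not say how such reads were assigned.

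Members also differed in how far they varied between libraries. The highest library exceeded the lowest by 15.6 times for Sec63, 14.1 times for Xbp1, 11.3 times for Gp93 (the ER Hsp90) and 10.2 times for CaBP1 (a disulfide isomerase). The range was only 1.62 times for OstDelta, a subunit of oligosaccharyltransferase, 1.64 times for Ero1L and 1.72 times for ERp60. The abundant disulfide isomerase ERp60 was thus steady, while Xbp1 was among the most variable members.

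**Figure D1:**
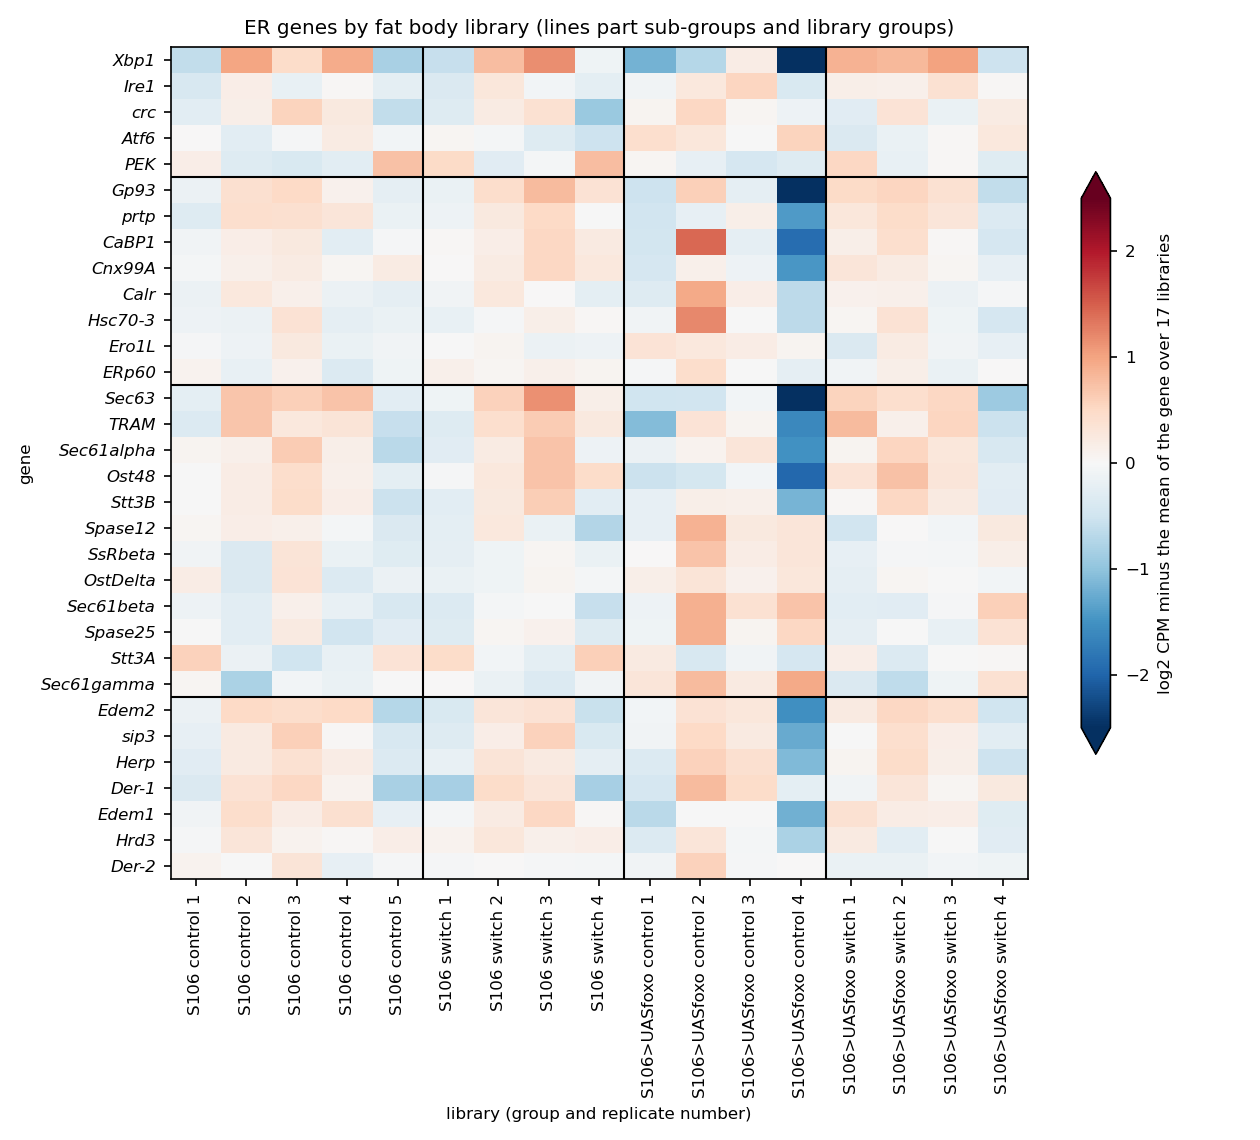
Each cell is the log2 CPM of 1 gene in 1 library minus that gene's mean over the 17 libraries; horizontal lines part the sub-groups and vertical lines the 4 groups. S106>UASfoxo control replicate 4 is the lowest library for 17 of the 32 members and S106>UASfoxo control replicate 2 the highest for 11.

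Xbp1 (FBgn0021872, chromosome 2R, 21143545 to 21145750 in the BDGP6 Ensembl annotation) had the largest difference of any member in S106>UASfoxo switch against its own control. It read 107, 148, 274 and 38.2 CPM in S106>UASfoxo control replicates 1 to 4, and 444, 424, 485 and 169 CPM in S106>UASfoxo switch. Of the 4 switch libraries, 3 lay above all controls, and the lowest switch library fell among them. In S106 control it read 158, 481, 333, 457 and 138 CPM, and in S106 switch 163, 413, 540 and 225 CPM, so levels in flies without the transgene ran from 138 to 481 CPM without RU486 and from 163 to 540 CPM after it. The log2 fold change of S106>UASfoxo switch against control was 1.43 ± 0.58 (SE), which did not pass edgeR's quasi-likelihood test over all genes (adjusted p = 0.320). Leaving out 1 library at a time moved it between 1.11, without S106>UASfoxo control replicate 4, and 1.96, without replicate 3 of the same group, and the smallest adjusted p among these fits was 0.154. The summed fat body markers lay between 26098.8 and 128883 CPM in S106>UASfoxo control and between 85790.5 and 145870 CPM in S106>UASfoxo switch, and the summed ovary and egg markers between 78.1 and 2434.4 CPM and between 313 and 2708 CPM. In the same comparison all 10 tested gut enterocyte markers had log2 fold changes above 0, with a median of 2.56, as had all 9 hemocyte markers, with a median of 0.44, 6 of 9 fat body markers (0.81), 11 of 19 ovary and egg markers (1.06), 8 of 10 muscle markers (0.14), 3 of 4 oenocyte markers (0.07) and 4 of 4 neuron markers (0.57). No marker passed the test, and the part of the gut and hemocyte markers in the Xbp1 difference was not tested.

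Differences of the other sensors were smaller. Ire1 (FBgn0261984, 3R, 19853908 to 19861291), the ER kinase and endonuclease that splices Xbp1, read 96.0, 124, 148 and 79.0 CPM in S106>UASfoxo control and 113, 111, 133 and 105 CPM in S106>UASfoxo switch. It read 77.7, 115, 90.4, 104 and 86.4 CPM in S106 control and 79.9, 125, 98.1 and 86.1 CPM in S106 switch. In S106>UASfoxo flies the switch libraries lay inside the range of their controls, in S106 flies 1 switch library lay above it, and the log2 difference in S106>UASfoxo flies was 0.05 ± 0.21 (adjusted p = 0.946), with a sign that turned when any of 3 single libraries was left out. Atf6 had a log2 difference of -0.37 ± 0.18 (adjusted p = 0.412), PEK of 0.26 ± 0.29 (adjusted p = 0.744) and crc of -0.09 ± 0.30 (adjusted p = 0.927).

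Among the chaperones and folding enzymes, S106>UASfoxo control replicate 2 was the highest library for Hsc70-3, CaBP1, Calr and ERp60, but not for Gp93, Cnx99A, prtp or Ero1L. Hsc70-3 (FBgn0001218, X, 11801696 to 11807117) read 570, 1382, 596 and 380 CPM in S106>UASfoxo control and 626, 771, 557 and 452 CPM in S106>UASfoxo switch. It read 552, 543, 772, 517 and 540 CPM in S106 control and 532, 586, 666 and 610 CPM in S106 switch. Outside S106>UASfoxo control replicate 2, Hsc70-3 stayed within 380 to 772 CPM. Its log2 difference between S106>UASfoxo switch and control was -0.28 ± 0.32 (adjusted p = 0.754) and became 0.22 without that replicate. CaBP1 was highest in the same library, at 35.9, 134, 42.1 and 13.0 CPM in S106>UASfoxo control and 54.7, 66.3, 50.2 and 37.0 CPM in S106>UASfoxo switch. Its log2 difference of -0.11 ± 0.46 (adjusted p = 0.946) became 0.78 without replicate 2.

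The folding gene most related to Xbp1 and the folding gene with the smallest p had values on opposite sides of 0. prtp (FBgn0030329, X, 11716756 to 11719894), a thioredoxin-like ER protein that also serves as a ligand in the engulfment of dying cells, read 52.2, 62.8, 80.3 and 27.1 CPM in S106>UASfoxo control and 88.3, 99.9, 89.8 and 57.7 CPM in S106>UASfoxo switch. It read 58.1, 97.3, 96.1, 90.3 and 65.0 CPM in S106 control and 66.8, 85.9, 102 and 72.6 CPM in S106 switch. As for Xbp1, 3 of the 4 S106>UASfoxo switch libraries lay above all their controls, and the log2 difference was 0.59 ± 0.29 (adjusted p = 0.403), or 0.37 without S106>UASfoxo control replicate 4. Ero1L (FBgn0261274, 3L, 4170404 to 4173789), the oxidase that recharges disulfide isomerases, read 70.1, 66.4, 63.0 and 57.9 CPM in S106>UASfoxo control and 42.7, 63.3, 51.8 and 47.5 CPM in S106>UASfoxo switch. The groups overlapped in 1 switch library, and the log2 difference was -0.33 ± 0.15 (adjusted p = 0.372). In flies without the transgene Ero1L read 54.3, 50.8, 65.0, 49.0 and 51.8 CPM in controls and 54.5, 57.5, 49.5 and 50.7 CPM after RU486, a narrower range than in S106>UASfoxo flies.

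**Figure D2:**
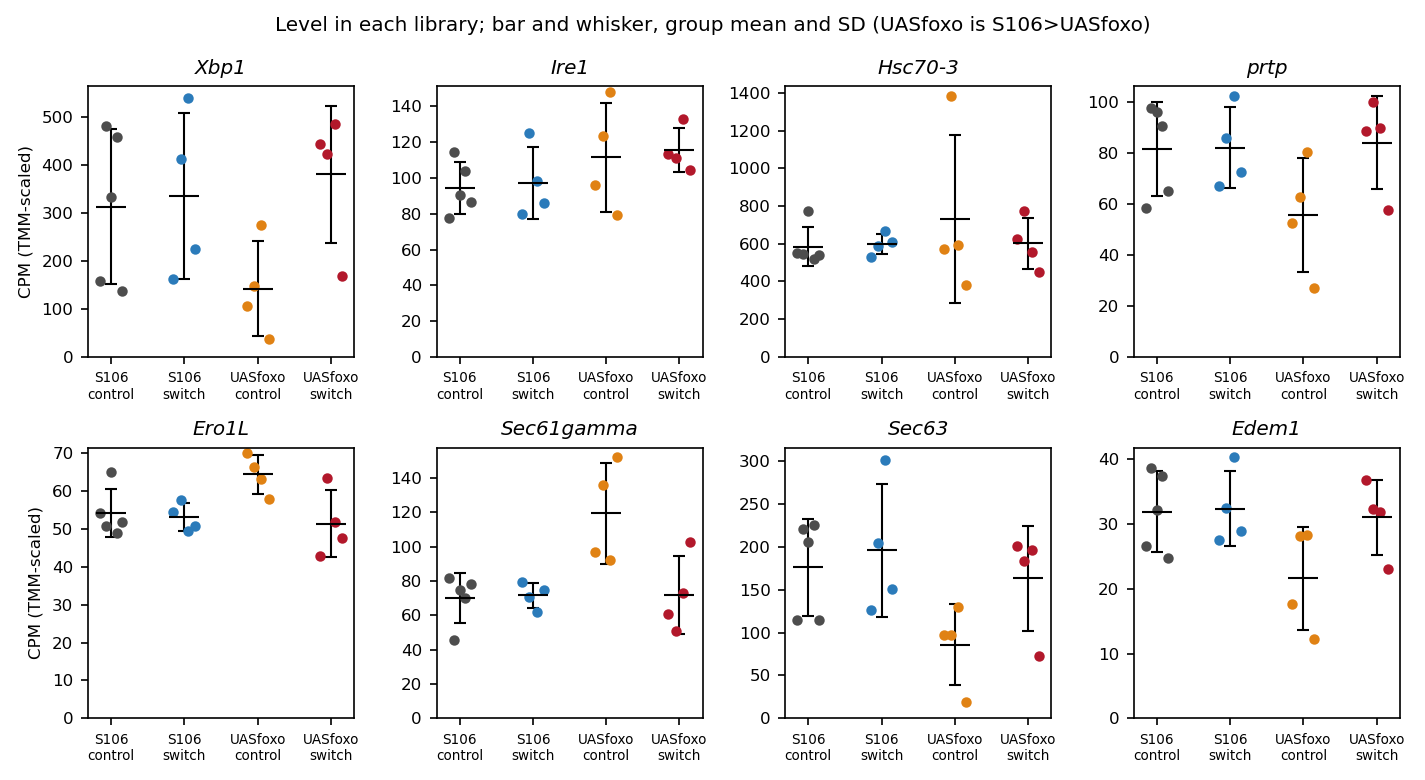
Points are CPM in each library for 8 members, with the mean and SD of each group (bar and whisker). Xbp1, prtp, Sec63 and Edem1 are low in S106>UASfoxo control replicate 4 (38.2 CPM for Xbp1), and Hsc70-3 has 1 library at 1382 CPM.

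Within the translocon and processing enzymes, members of the same complex had values on opposite sides of 0. Sec61gamma (FBgn0031049, X, 19643327 to 19644518), a small subunit of the protein-conducting channel, read 97.1, 136, 92.2 and 152 CPM in S106>UASfoxo control and 61.0, 50.9, 72.7 and 103 CPM in S106>UASfoxo switch. It read 81.5, 45.5, 74.7, 70.2 and 78.5 CPM in S106 control and 79.5, 70.6, 61.7 and 74.5 CPM in S106 switch. All 4 S106>UASfoxo control libraries exceeded every S106 control library, and the switch group overlapped its control in 1 library. The log2 difference between S106>UASfoxo switch and control was -0.73 ± 0.24, with the smallest p of the module (adjusted p = 0.274).

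Sec63 (FBgn0035771, 3L, 7360561 to 7364366), the J-domain protein that recruits Hsc70-3 to the channel, had a value above 0. It read 97.1, 97.4, 131 and 19.4 CPM in S106>UASfoxo control and 201, 183, 197 and 72.6 CPM in S106>UASfoxo switch. It read 115, 221, 206, 225 and 114 CPM in S106 control and 126, 205, 302 and 151 CPM in S106 switch. The log2 difference in S106>UASfoxo flies was 0.92 ± 0.48 (adjusted p = 0.425), with 1 switch library below the 3 higher controls, and it was 0.59 without S106>UASfoxo control replicate 4. An antisense RNA on the opposite strand covers 60.7% of the Sec63 exons, and without a stated strand setting its reads cannot be told from those of Sec63.

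Ost48, a core subunit of oligosaccharyltransferase, read 26.3, 27.9, 36.5 and 9.65 CPM in S106>UASfoxo control and 48.4, 63.7, 47.0 and 31.8 CPM in S106>UASfoxo switch. The lowest switch library lay below the highest control, and the log2 difference was 0.93 ± 0.32 (adjusted p = 0.274). OstDelta, of the same complex, had a difference of -0.27 ± 0.17 (adjusted p = 0.511), and it was the member whose 4 switch libraries all lay below all 4 controls, from 82.6 to 99.4 against 104 to 120 CPM. Over all genes, 1.88% were separated in that direction and 2.27% in the other, in which no member was. The remaining translocon genes divided likewise, with values above 0 for Sec61alpha, TRAM, Stt3A and Stt3B, and below 0 for Sec61beta, SsRbeta, Spase12 and Spase25. None of these 12 genes passed the test. Reads of Spase12 cannot be separated with certainty from those of CG2006, which covers all of its exons on the opposite strand.

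Exon length ran along this division. Over the 32 members, the fold change in S106>UASfoxo switch against control had a Spearman rho of 0.436 with exon length, and over 9739 genes with a length the value was 0.377. The measure is across genes, which are not independent replicates, and its part in the division was not tested.

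In the ERAD sub-group, 5 of 7 fold changes were above 0 and 2 below, with none past the test. Edem1 (FBgn0023511, X, 1903704 to 1908827) read 17.7, 28.1, 28.2 and 12.3 CPM in S106>UASfoxo control and 36.8, 32.3, 31.8 and 23.0 CPM in S106>UASfoxo switch. It read 26.5, 38.6, 32.2, 37.3 and 24.7 CPM in S106 control and 27.5, 32.5, 40.4 and 28.9 CPM in S106 switch. Of the 4 S106>UASfoxo switch libraries, 3 exceeded all controls, and the log2 difference was 0.52 ± 0.26 (adjusted p = 0.412), or 0.33 without S106>UASfoxo control replicate 4. The E3 ligase sip3 (the fly HRD1) was at 0.13 ± 0.33, its partner Hrd3 at 0.09 ± 0.20, and the stress-induced membrane protein Herp at 0.06 ± 0.31. Leaving out 1 library turned these 3 values, sip3 to -0.13 and Herp to -0.18 without S106>UASfoxo control replicate 4, and Hrd3 to -0.08 without S106>UASfoxo switch replicate 1. Without that control replicate Edem2, at 0.29 ± 0.38 over all libraries, was at 0.01.

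Summed over the module, S106>UASfoxo switch against control gave 17 log2 fold changes above 0 and 15 below, with a median of 0.05, against -0.02 over all genes tested. The sign turned for 11 of the 32 members when 1 library was left out. edgeR called 0 of 32 members, where it called 0% of all genes. At an unadjusted p under 0.05 there were 4 members (Xbp1, Ost48, Sec61gamma and Ero1L), where 12.9% of all genes passed. DESeq2 called 61 genes in this contrast and no member, and limma-voom called 0 genes and so no member. The median fold change was 0.05 for sensors, -0.10 for chaperones, -0.08 for the translocon and 0.09 for ERAD.

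The driver alone gave smaller values. In S106 switch against S106 control, 20 members were above 0 and 12 below, with a median of 0.03 and a range from -0.20 for Edem2 to 0.26 for Ost48. edgeR called 0 of 32 (0% of all genes), none of the members had an unadjusted p under 0.05 (0.693% of all genes did), and no member was separated between the groups, where 0.0917% of all genes were upward and 0.183% downward. Xbp1 was at 0.10 ± 0.54. The difference between the RU486 effects of the genotypes was tested directly, and again 0 of 32 members passed (0% of all genes). At an unadjusted p under 0.05 stood 1 member, Sec61gamma at -0.76 ± 0.33 (adjusted p = 0.950), where 1.88% of all genes did. The difference for Xbp1 was 1.33 on the log2 scale (adjusted p = 0.950).

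The control groups of the genotypes were compared next. In S106>UASfoxo control against S106 control, 16 members were above 0 and 16 below. edgeR called 0 of 32 members and 0.0407% of all genes, and 7 members had an unadjusted p under 0.05, where 11% of all genes had. These were Sec61gamma at 0.77 ± 0.23 (adjusted p = 0.392), Sec61beta at 0.67 ± 0.23, Spase25 at 0.55 ± 0.22, SsRbeta at 0.42 ± 0.18, Sec63 at -1.03 ± 0.46, Ost48 at -0.72 ± 0.31 and Edem1 at -0.56 ± 0.25. Xbp1 was at -1.14 ± 0.55 (adjusted p = 0.456). Sec61gamma was separated upward, where 0.55% of all genes were, and no member downward, where 3.14% were. This comparison shares its 4 S106>UASfoxo control libraries with the comparison of RU486 in S106>UASfoxo flies, so opposite signs in the 2 comparisons are not independent.

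Between the genotypes after RU486, members lay close together. In S106>UASfoxo switch against S106 switch, the fold changes ran from -0.26 for Sec63 to 0.28 for Sec61beta, and Xbp1 was at 0.18 ± 0.56. edgeR called 0 of 32 members and 0.0509% of all genes, and no member had an unadjusted p under 0.05, where 1.57% of all genes did. Der-2, a derlin of the degradation channel, was the member whose S106>UASfoxo switch libraries all lay below those of S106 switch, from 35.2 to 37.7 against 38.4 to 40.1 CPM, where 0.509% of all genes were separated in that direction and 0.611% in the other, in which no member was.

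**Figure D3:**
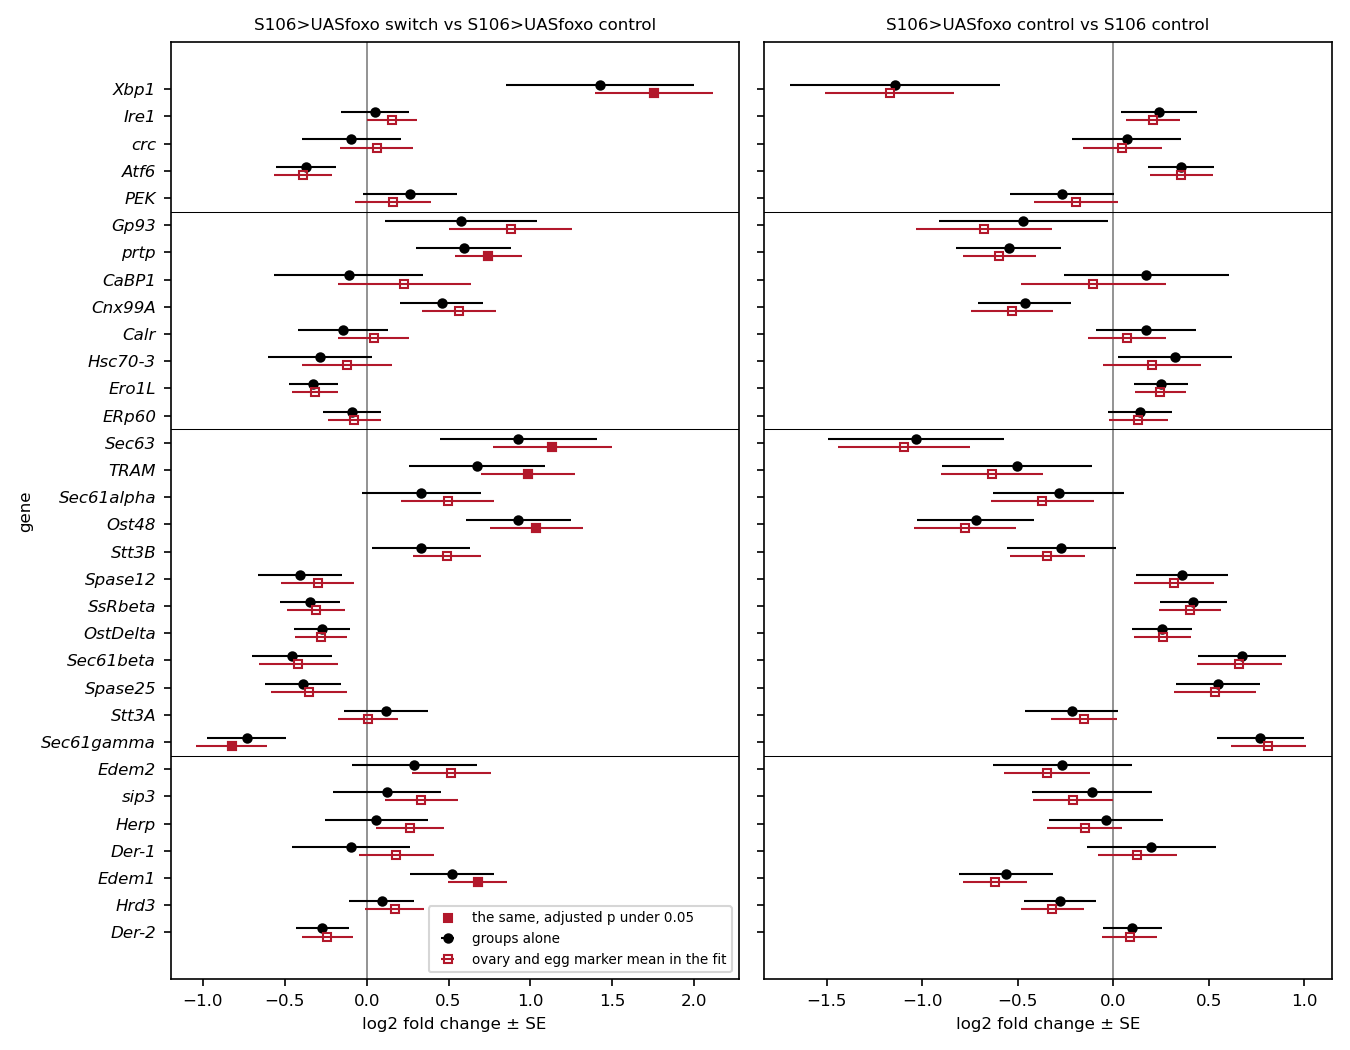
Log2 fold change with its standard error for each member, in S106>UASfoxo switch against control (left) and S106>UASfoxo control against S106 control (right), from the fit on groups alone (black) and with the ovary and egg marker mean added (red; filled, adjusted p under 0.05). The panels share the S106>UASfoxo control libraries, and Xbp1 is at 1.43 on the left and -1.14 on the right.

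Ovary and egg markers moved opposite to Xbp1. Centred within groups, Xbp1 had r = -0.828 with the mean log2 level of these markers over 17 libraries (permutation p = 0.00084) and Spearman rho = -0.799 (permutation p = 0.00156). The value was r = -0.825 without the 2 libraries farthest from the median of Xbp1 and -0.619 when also centred within rounds of library numbers. With the marker mean as a covariate, 7 of 32 members (21.9%) passed in S106>UASfoxo switch against control, where 13.5% of all genes did. Xbp1 was then at 1.76 ± 0.36 (adjusted p = 0.0163), Sec63 at 1.13, Ost48 at 1.03, TRAM at 0.98, prtp at 0.74, Edem1 at 0.68 and Sec61gamma at -0.82. Leaving out single libraries changed these calls. None of the members was called without S106>UASfoxo control replicate 2 or without S106>UASfoxo switch replicate 1, where 0.0101% of all genes were called in each fit. Of the members only Xbp1 was called without S106>UASfoxo control replicate 4, where 1.7% of all genes were, and without switch replicate 2, where 4.4% were. Between 5 and 8 members were called without each of the other 4 libraries, where 10.1% to 19.5% of all genes were, so the members' calls moved with those of all genes. With the same covariate, 0 of 32 members passed in the other 4 contrasts, where 0.0815% of all genes did between the control groups, 0.0917% between the switch groups and 0% in the other two.

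Over libraries, 15 of the 31 other members had a slope on Xbp1 past the threshold, a share near that of all genes. In an edgeR fit with group and Xbp1 level, 14 of the 31 other members rose with Xbp1 and 1 fell, 48.4% in all, where 52.5% of 9818 genes passed. The share that rose was 45.2% against 27.1% of all genes, and the share that fell was 3.23% against 25.4%. The median slope was 0.24 log2 units per log2 unit of Xbp1, against 0.04 over all genes. The share past the threshold was thus near the background.

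The sub-groups differed in their counts, and this difference was not tested. In ERAD 5 of 7 genes rose with Xbp1, where 27.1% of all genes did. They were Edem2 with a slope of 0.62 ± 0.08, sip3 with 0.47, Herp with 0.46, Der-1 with 0.40 and Edem1 with 0.38 ± 0.06. With libraries blocked by title number, only Edem1 and Edem2 of these passed, and with blocks by library round none did. In the translocon sub-group 5 of 12 rose, with Sec63 at 0.80 ± 0.10, TRAM at 0.64, Sec61alpha at 0.52, Ost48 at 0.44 and Stt3B at 0.43, and Sec61gamma fell at -0.26 ± 0.08. Among the 8 chaperones and folding enzymes, Gp93 rose at 0.64, prtp at 0.46 ± 0.05 and Cnx99A (calnexin) at 0.28. Among the 4 remaining sensors and factors Ire1 rose, at 0.26 ± 0.05. The other catalytic oligosaccharyltransferase subunit, Stt3A, was at -0.18 (adjusted p = 0.149) where its paralogue Stt3B rose, and the derlin Der-2 was at 0.01 (adjusted p = 0.882) where Der-1 rose. The difference between paralogues was not tested, and it depended on the fit. With the ovary and egg marker mean added, Stt3A was at 0.23 (adjusted p = 0.325), Stt3B at 0.35 (adjusted p = 0.118), Der-1 at -0.02 (adjusted p = 0.970) and Der-2 at -0.13 (adjusted p = 0.530), and neither Stt3B nor Der-1 passed under the blocks by title number or library round.

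Among the chaperones and folding enzymes, Hsc70-3, Calr, CaBP1, ERp60 and Ero1L did not pass. Hsc70-3 had a slope of 0.24 ± 0.13 (adjusted p = 0.150), Calr of 0.24 ± 0.10 (adjusted p = 0.0695), CaBP1 of 0.40 ± 0.21 (adjusted p = 0.117) and ERp60 of 0.01 ± 0.07 (adjusted p = 0.907). The median exon length was 2681.5 bp for the members that rose and 1953.5 bp for those not past the threshold, and Sec61gamma has 798 bp.

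**Figure D4:**
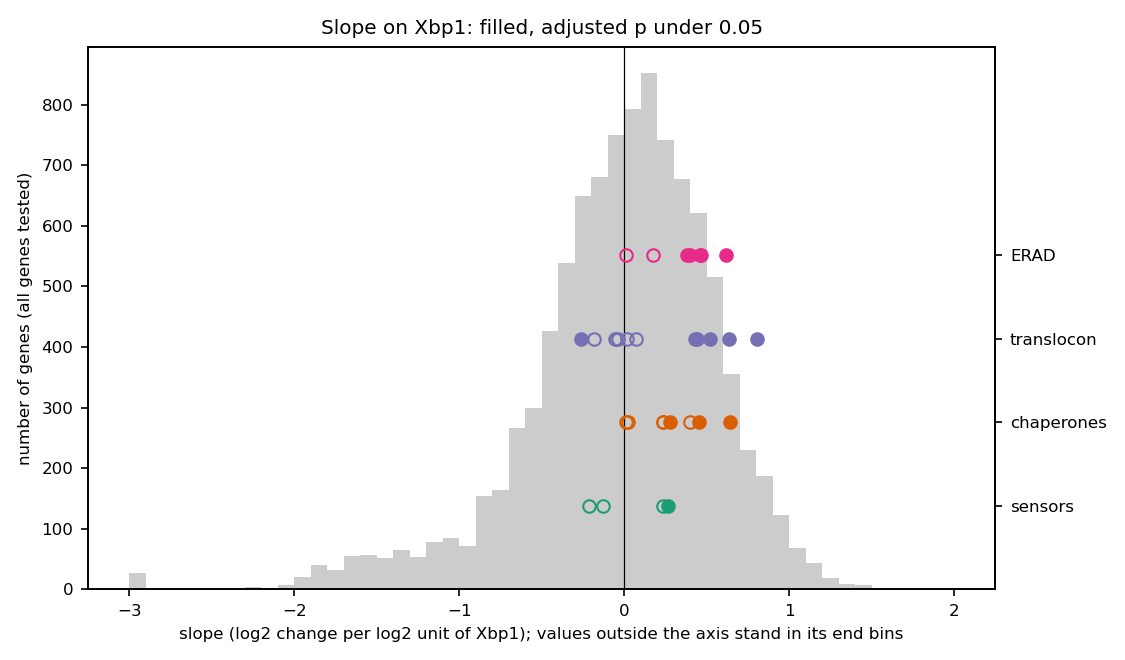
Grey bars count all genes by their slope on Xbp1 (log2 change per log2 unit), and points are the members by sub-group, filled where the adjusted p is under 0.05. ERAD has 5 of 7 filled points and the chaperones 3 of 8, where 52.5% of all genes passed. The all-gene distribution spreads to both sides of 0.

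The relation depended on how libraries were blocked. With the replicate number of the titles as a block, 5 members passed (prtp, Sec63, TRAM, Edem1 and Edem2), where 11.5% of all genes did. With rounds of consecutive library numbers as a block, 1 member passed, Sec63 at 0.84 ± 0.20 (adjusted p = 0.0289), where 7.27% of all genes did. With the ovary and egg marker mean in the fit, 6 of 31 passed (19.4%), where 9.67% of all genes did. The marker mean itself had a slope past the threshold for 18 of 32 members, or 56.2% against 58.1% of all genes. Of these 2 had an upward slope, where 28.8% of all genes did, and 16 a downward one, where 29.3% did. Of the fat body markers 8 of 9 rose with Xbp1, of the hemocyte markers 8 of 9, and of the ovary and egg markers 17 of 19 fell. All 4 tested oenocyte markers rose, 2 of 10 gut enterocyte markers, 5 of 10 muscle markers, with 1 that fell, and 1 of 4 neuron markers. The part of tissue make-up in the relation beyond these values was not tested.

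Correlations with Xbp1, centred within groups, were highest for prtp, Sec63 and Edem1. prtp had r = 0.954 with Xbp1 over 17 libraries (permutation p = 5e-05, adjusted over 9818 genes 0.000841), rho = 0.890 (permutation p = 0.00013, adjusted 0.0023) and r = 0.943 without the 2 farthest libraries, and r = 0.830 when also centred within rounds. For Sec63, r was 0.937 (permutation p = 2e-05, adjusted 0.000534), rho 0.853 (permutation p = 3e-05, adjusted 0.00118), and r was 0.960 without the 2 farthest libraries and 0.839 within rounds. Edem1 had r = 0.933 (permutation p = 3e-05, adjusted 0.000633), rho = 0.904 (permutation p = 5e-05, adjusted 0.00146), r = 0.927 without the 2 farthest and 0.714 within rounds. All 3 thus stayed close to Xbp1 without its extreme libraries, and less so within rounds.

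For Ire1, r was 0.859 (permutation p = 0.00028, adjusted 0.00216), rho 0.873 (permutation p = 0.00024, adjusted 0.00327), and r was 0.791 without the 2 farthest libraries and 0.834 within rounds. Hsc70-3 had r = 0.458 (permutation p = 0.196, adjusted 0.265) and rho = 0.378 (permutation p = 0.186, adjusted 0.260), and r fell to 0.0966 without the 2 farthest libraries and was -0.281 within rounds. Sec61gamma had r = -0.719 (permutation p = 0.00132, adjusted 0.00584), rho = -0.691 (permutation p = 0.00651, adjusted 0.0204), r = -0.745 without the 2 farthest and -0.489 within rounds. Over the 31 members, r was positive for 24 and negative for 7, with a median of 0.561 against 0.0886 over all genes. The median was 0.187 against 0.0277 when adjusted for the ovary and egg marker mean, and 0.265 against 0.0962 when also centred within rounds. By permutation 15 members passed, where 52.6% of all genes did.

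**Figure D5:**
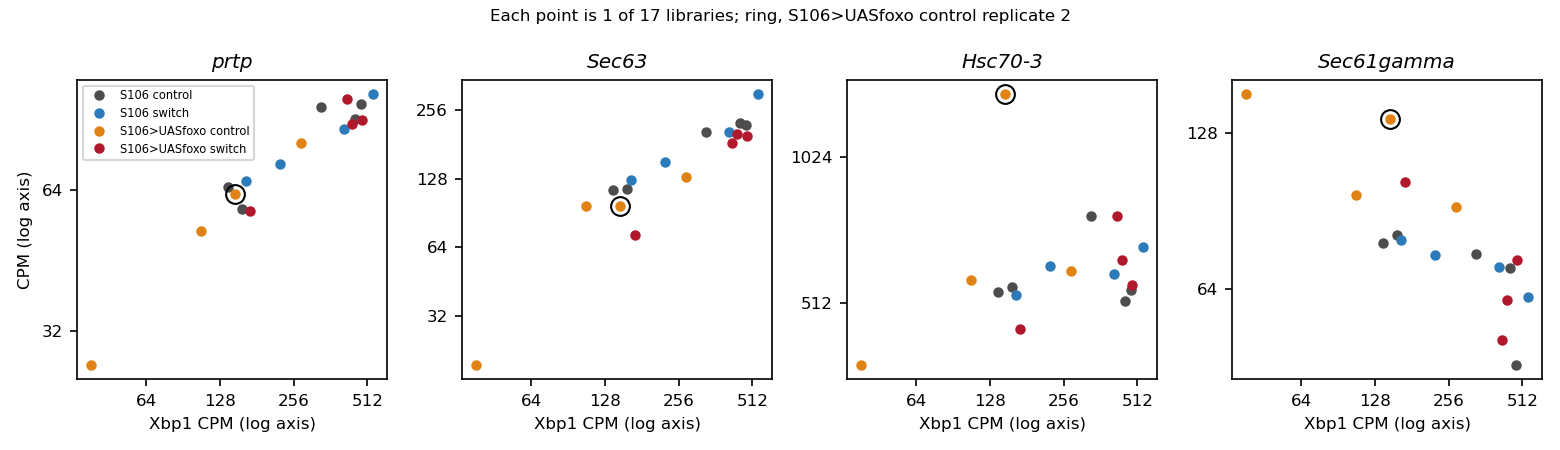
CPM of 4 members against CPM of Xbp1 on log axes, 1 point per library coloured by group, with S106>UASfoxo control replicate 2 ringed. prtp and Sec63 rise with Xbp1, Hsc70-3 is scattered with the ringed library on top at 1382 CPM, and Sec61gamma falls.

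The genes most like Xbp1 were not ER genes of the list. Among genes outside the module with a mean of at least 10 CPM, the 5 with the highest group-centred r over 17 libraries are given. SREBP (a transcription factor that drives lipid synthesis in flies) was at 0.994, CG31705 at 0.992 and pug at 0.990. Mct1 (a monocarboxylate transporter) was at 0.989 and Oatp74D (an organic anion transporter that imports ecdysone) at 0.988. Each of the 5 had a permutation p of 1e-05, the smallest that the permutations can give, and an adjusted p of 0.000534. By the size of r, prtp stood at rank 162 of 9818 genes and Sec63 at rank 283.

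Replicate 2 of S106>UASfoxo control had a profile that was picked out after its values were seen, and part of it recurred in replicate 4. It was the highest of 17 libraries for 11 of 32 members and for 11.5% of all genes. Against the median of the other 16 libraries, CaBP1 was at 2.66 times, Hsc70-3 at 2.45, Sec61beta at 2.03, Calr at 2.00, Spase25 at 1.93, Sec61gamma at 1.82, Der-1 at 1.65 and ERp60 at 1.37 times. In the same library Xbp1 was at 0.487 times that median, Sec63 at 0.583 and Ost48 at 0.658. Other folding genes stood closer to the median, with Gp93 at 1.28, Ero1L at 1.25 and prtp at 0.755 times. Replicate 4 of the same group was the lowest library for 17 of 32 members and for 22.9% of all genes, with CaBP1 at 0.249 times the median of the others. As in replicate 2, Sec61gamma at 2.04, Sec61beta at 1.79 and Spase25 at 1.49 times were above the median. Xbp1 at 0.126, Sec63 at 0.116 and Ost48 at 0.227 times were again below it. Unlike in replicate 2, Hsc70-3 at 0.658, Calr at 0.639, Der-1 at 0.756 and ERp60 at 0.839 times were also below it. Without both replicates, no member and no other gene was called in S106>UASfoxo switch against control or in the comparison of the control groups, and 15 of 31 members were related to Xbp1, where 47.7% of all genes were.

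Other parts of the secretory pathway were read from lists of genes by function. In S106>UASfoxo switch against control, edgeR called no gene of the 7 lists (0% of all genes). The COPI coat and retrieval list had a median log2 fold change of 0.70 over 10 tested genes, 6 above 0 and 4 below. Its coat genes gammaCOP and betaCOP were at 1.00 and 1.40. The COPI coat retrieves ER proteins from the Golgi, and the list also holds genes that are not coat subunits, such as KdelR. The COPII coat and export list had a median of 0.46 over 10 genes, also 6 above 0 and 4 below. Its coat genes Sec13 and Sec23 were at 1.21 and 1.33. The COPII coat carries cargo out of the ER, and this list also holds genes that are not coat subunits, such as ergic53. The median of the signal recognition particle was -0.22 over 8 genes, 3 above 0 and 5 below, with SrpRbeta at -0.48 and Srp9 at -0.67. All 9 genes of the further translocon and signal peptide list were below 0, with a median of -0.28 and the signal peptidase subunits twr at -0.50 and Spase22-23 at -0.40. In S106>UASfoxo control against S106 control the same 9 genes were all above 0 with a median of 0.30. There the median was -0.57 for the COPI list, -0.36 for the COPII list and 0.21 for the signal recognition particle. In S106>UASfoxo switch against S106 switch these 3 medians were 0.06, 0.02 and -0.02, and that of the 9 genes was 0.21. The RU486 comparison in S106>UASfoxo flies and that of the control groups share their S106>UASfoxo control libraries. Over 9739 genes, fold change had a Spearman rho with exon length of 0.377 in S106>UASfoxo switch against control. Between the control groups rho was -0.434. The part of exon length in the values of these lists was not tested.

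Further folding and glycan-trimming genes had a median of -0.21 over 11 genes, 4 above 0 and 7 below. GCS2alpha (a glucosidase subunit) was at 0.84 ± 0.30 (adjusted p = 0.281). Sil1 (a nucleotide exchange factor for BiP) was at -1.37 ± 0.50 (adjusted p = 0.281). Its level varied widely between the S106>UASfoxo controls, at 37.1 ± 40.1 CPM (SD, n = 4), against 14.3 ± 2.16 CPM in S106>UASfoxo switch (SD, n = 4). The median of further ERAD genes was -0.05 over 11, 5 above 0 and 6 below, with Plap at 1.27 and Npl4, a cofactor of the extracting ATPase, at 0.60. Of the 10 further outputs of the unfolded protein response, 5 were above 0 and 5 below. RtcB, the ligase that rejoins spliced Xbp1 mRNA in mammalian cells, read 5.27, 4.59, 6.65 and 1.97 CPM in S106>UASfoxo control and 22.4, 11.4, 17.2 and 3.67 CPM in S106>UASfoxo switch. The lowest switch library lay among the controls, and the log2 difference was 1.57 ± 0.47 (adjusted p = 0.273). RtcB ran from 9.21 to 19.3 CPM in S106 control and from 13.4 to 25.0 CPM in S106 switch. In S106>UASfoxo control against S106 control its log2 difference was -1.54 ± 0.45 (adjusted p = 0.392). Manf, an ER-resident factor that protects neurons, read 52.7, 115, 55.0 and 87.8 CPM in S106>UASfoxo control and 37.2, 54.6, 48.7 and 65.0 CPM in S106>UASfoxo switch, a log2 difference of -0.59 ± 0.27 (adjusted p = 0.368). Between the control groups Manf was at 0.75 ± 0.25 (adjusted p = 0.392). Like Hsc70-3, Manf was highest in S106>UASfoxo control replicate 2.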

How the data were processed

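The authors deposited raw read counts per gene for 17 fat body libraries. Per the labels' protocols, poly(A) RNA was made into directional libraries with barcodes and 16 PCR cycles. Per the submitters' processing notes, FastQC, HISAT2, SAMtools, featureCounts and DESeq2 were used. The sources used here do not give versions, genome build, annotation or strand setting, nor whether barcodes were used to remove PCR copies, which otherwise count as reads. Of the rows, 14538 matched a symbol. Of a gut table no gene is reported, because its mean counts had a Spearman rho of 0.0146 with the fat body over 12011 shared identifiers. Its 18 columns entered no other step.

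The deposited counts were fitted with edgeR 4.0.16 under R 4.3.3 (TMM, filterByExpr, robust quasi-likelihood test, Benjamini-Hochberg adjustment over 9819 genes, threshold 0.05), the 4 groups together. The common biological coefficient of variation was 0.51. Log2 CPM used a prior count of 2. The slope on Xbp1 came from the same model with Xbp1 log2 CPM added. Correlations used group-centred values and 100000 two-sided permutations within groups. Alternatives were RLE factors, DESeq2 1.42.0, limma 3.58.1, other filters, blocks by title number and by rounds of library numbers, an ovary and egg marker covariate, and leaving out libraries. Library rounds were read from the numbers in the descriptions and are not stated to be batches. Scripts were tested on simulated data.

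Members and lists were chosen with earlier results of these data known. Values in every library are given for Xbp1, Hsc70-3 and, per sub-group, the member with the smallest p in S106>UASfoxo switch against control and that with the largest r with Xbp1. From each further list up to 2 genes with the smallest p are named. Other members are named by level, range or count. Of the 34 listed genes, 16 share exonic sequence with another annotated entry, among them Pdi and TER94, which were not analysed. For 3 of the 16 (crc, Sec63 and Spase12) the overlap covers more than 25% of their length. Exon overlaps and coordinates are from the BDGP6 Ensembl annotation, which need not be the authors' build. Marker lists covered fat body, ovary and egg, gut enterocyte, hemocyte, muscle, oenocyte and neuron.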

Additional observations from a re-analysis of the deposited data

Results flagged for a closer look

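Among 128 groups of member values, 3 held a library whose gap to its nearest neighbour was above Dixon's 95% critical value, where chance would give 6.4. Der-2 read 58.9 CPM in S106>UASfoxo control replicate 2, against 37.1 to 39.8 CPM in the other libraries of the group. It was the only member flagged in that replicate, so Hsc70-3 and CaBP1 were not flagged there. Hsc70-3 read 772 CPM in S106 control replicate 3, against 517 to 552 CPM. Sec63 read 72.6 CPM in S106>UASfoxo switch replicate 4, against 183 to 201 CPM.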

How the results depend on the processing

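Members called were 0 in 99 alternative fits over the 5 contrasts. The other 7 fits are S106>UASfoxo switch against control with the ovary and egg marker covariate. They called 7 members over all libraries and, with single libraries left out, 1 to 8, a combination added after seeing the data. With this covariate, the fits without S106>UASfoxo control replicate 2 or S106>UASfoxo switch replicate 1 called 0 and are among the 99. The count of members related to Xbp1 was 15 of 31 (52.5% of all genes), and 5 with the title replicate block (11.5%), 1 with the library round block (7.27%) and 6 with the ovary and egg marker covariate (9.67%). Leaving out single libraries gave 15 to 18 (43.8% to 54.5%). The cause was not tested. The median member fold change in S106>UASfoxo switch against control ranged from -0.154 to 0.256. Same-numbered libraries had correlations of their deviations from -0.42 to 0.77 in S106 flies and from -0.0633 to 0.584 in S106>UASfoxo flies, so title numbers were not taken as pairs. Same-round control libraries lay at 0.406 to 0.737, other groups did not all exceed 0.1. The title replicate block changed no other call. Slopes on Xbp1 turned for 8 of 31 members with the title replicate block, 7 with the library round block and 11 with the marker covariate. Among them 1 was past the threshold in the group fit, Der-1, which became -0.0175 with the marker covariate. The Ero1L slope became -0.00258 with RLE factors, -0.0937 with the title replicate block, -0.0552 with the round block, -0.00946 with the marker covariate, -0.0637 without centring, -0.00885 without S106>UASfoxo control replicate 4 and -0.00945 without replicates 2 and 4, a pair chosen after seeing the data. The Hsc70-3 slope became -0.253 with the round block and -0.00905 with the marker covariate. With single libraries left out, the Ero1L slope reached 0.0402, Ire1 0.215 and Hsc70-3 -0.499 in S106>UASfoxo switch against control, and Hsc70-3 0.539 between the control groups. In S106>UASfoxo switch against control, Ire1 became -0.0157 without control replicate 1, -0.0849 without control replicate 4, -0.0257 without switch replicate 3 and -0.0789 without control replicates 2 and 4, and Hsc70-3 became 0.223 without control replicate 2 and 0.0435 without 2 and 4. In S106>UASfoxo control against S106 control, Hsc70-3 became -0.183 without control replicate 2 and -0.00329 without 2 and 4. The lowest count of any member in any library was 88, for Ost48 in S106>UASfoxo control replicate 4.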
